A study of Mus musculus with 24 samples.

Results

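The genes described here are 10 members of the canonical Wnt pathway: the ligand *Wnt3*, the receptor *Lgr5*, the secreted antagonist *Dkk1*, the destruction complex scaffold *Axin2*, the effector *Ctnnb1*, the TCF/LEF DNA-binding factors *Lef1*, *Tcf7*, *Tcf7l1* and *Tcf7l2*, and the target transcription factor *Sp5*. They were taken by symbol and are 10 of the 25965 genes in the deposited expression table. RNA-seq was performed on 20 libraries of a male C57/Bl6 mouse embryonic stem cell (mESC) line on days 4, 5, 6 and 7 of differentiation. The paper used this male time course to assess whether knockdown of the BAF chromatin remodelling subunits *Smarcc1* and *Smarca4* delayed differentiation. From distances between whole expression profiles, it reported no evidence of delay. It also drew on single pluripotency and differentiation genes, among them by qRT-PCR in female mESCs. Further evidence came from later transduction and from a male line with inducible *Xist*, studied without differentiation. All cells had been expanded in 2i medium, which holds inhibitors of MEK and of GSK3, with LIF, and were then weaned into serum-containing DME HiHi medium. All were transduced with an shRNA retrovirus on day 2 and put under puromycin selection from day 3. The groups were the nonsilencing control (Nons, 4 libraries, 1 per day), *Smarcc1* knockdown with the hairpins Smarcc1.6 and Smarcc1.7 (8 libraries, 1 per hairpin and day) and *Smarca4* knockdown with the hairpins Smarca4.4 and Smarca4.6 (8 libraries). The hairpins are not stated to be separate derivations of the line, and the labels do not say whether the libraries of a hairpin came from 1 culture. The *p*-values below rest on the spread within hairpin pairs of the same day. Days are taken as independent there, except where a replicate block is named. Each comparison with Nons rests on 1 Nons library per day.

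In the canonical pathway, a Wnt ligand bound to a Frizzled receptor and its Lrp coreceptor stops a cytoplasmic complex of Axin, Apc, casein kinase 1 and GSK3 from marking β-catenin for degradation. β-catenin, the product of *Ctnnb1*, then enters the nucleus and turns TCF/LEF factors from repressors into activators of genes such as *Axin2*, *Lef1* and *Sp5*. In mESCs the pathway holds cells in the naive state, largely by lifting repression by *Tcf7l1*, and inhibition of GSK3 in 2i medium switches it on without a ligand.

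Library totals ranged from 6829596 reads, in Smarca4.4 on day 5, to 27472885 reads, and 3 reads, taken as the smallest number distinguishable from none, were worth 0.109 to 0.439 rpm (reads of a gene scaled to a common library size). In bulk RNA, fewer cells of a type and less RNA per cell cannot be told apart. *Smarcc1* was reduced in 8 of 8 Smarcc1 knockdown libraries, to 23.7% to 60.1% of Nons on the same day, and *Smarca4* in 8 of 8 Smarca4 knockdown libraries, to 21.6% to 55.3%. The hairpin pairs lay further apart on days 5 and 6, where the SD of their log2 difference over tested genes was 0.58 to 0.72, than on days 4 and 7, where it was 0.25 to 0.33. None of the 4 general pluripotency markers (*Pou5f1*, *Sox2*, *Sall4*, *Dppa4*) was at 0 reads on any day, and their summed level ranged from 1901 to 2252 rpm on day 4 and from 327 to 689 rpm on day 7. On each day the summed level of 6 naive pluripotency markers was lower in Nons (141 to 215 rpm) than in any knockdown library of that day (211 to 606 rpm). The general markers were higher in Nons (2252 rpm) than in any knockdown library (1901 to 2225 rpm) on day 4. On day 7 they were at 381 rpm in Nons, 554 to 689 in Smarcc1 and 327 to 359 in Smarca4 libraries. Primed epiblast markers were highest in Nons on day 4 (1606 rpm against 1093 to 1304) and lowest in Nons on day 7 (268 against 375 to 435). Trophoblast markers, 21.1 to 36.8 rpm in sum on day 4, reached 1584 rpm in Nons, 680 to 792 rpm in Smarcc1 and 852 to 1358 rpm in Smarca4 libraries on day 7, with *Cdx2* and *Elf5* at 0 reads in Nons. The part of these markers in the results below was not tested.

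Over the 4 days the members took divergent courses. *Lef1* and *Axin2* fell. *Dkk1* held 4 to 13 reads a library on day 4 and rose to 60 to 117 on day 7, and *Sp5* rose from at most 1 read. *Ctnnb1* and *Tcf7* changed by less than 1 on the log2 scale, and *Tcf7l1* and *Tcf7l2* did not pass the test between day 4 and day 7. Of the 7 members abundant enough to pass the filter, 5 passed the test between day 7 and day 4 (64.5% of all tested genes did), 0 in the *Smarcc1* knockdown (10.6%) and 1 in the *Smarca4* knockdown (6.71%). That 1 was *Wnt3*, whose call rested on a single Nons library.

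**Figure D1:**
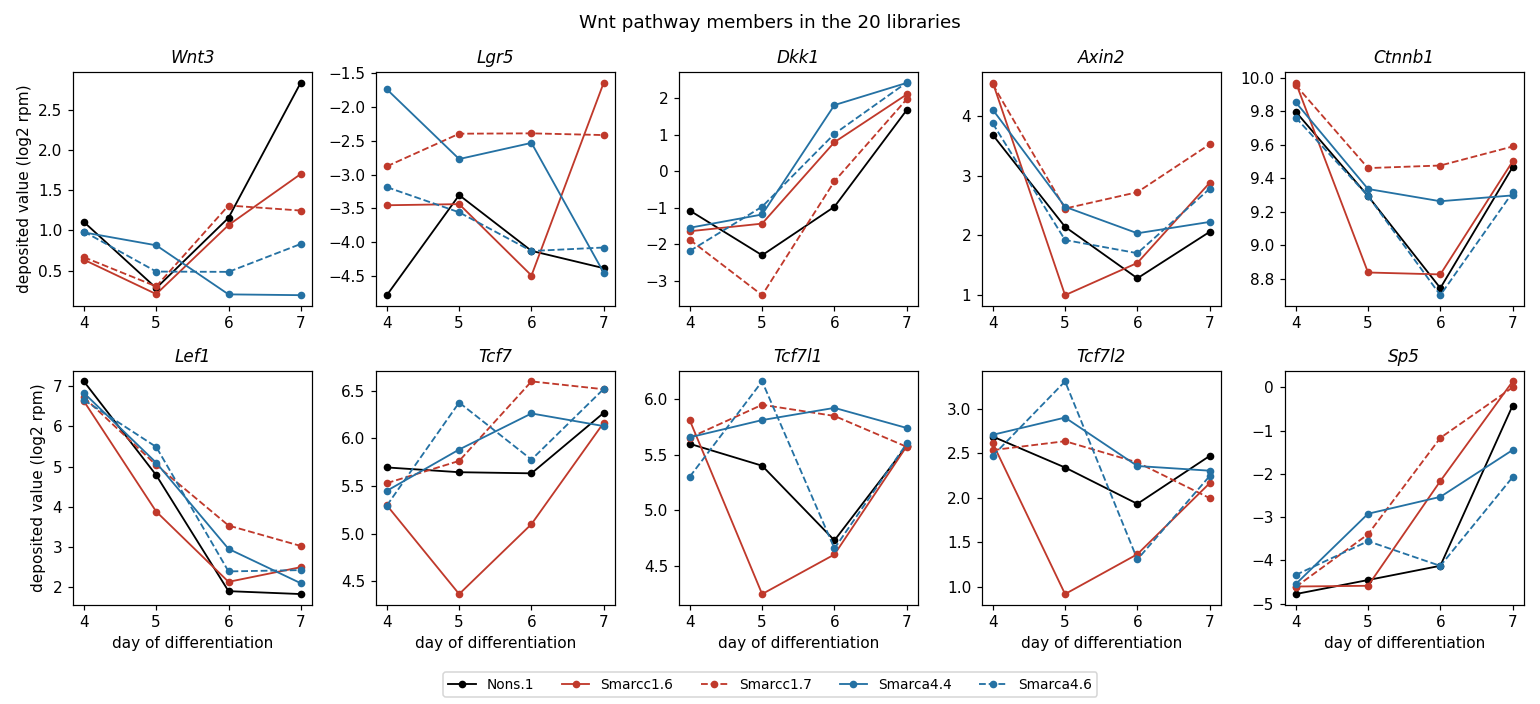
Deposited log2 rpm (y axis, a separate scale in each panel) of the 10 members against day of differentiation (x axis), with a point for each of the 20 libraries and a line for each culture series (Nons.1 black, Smarcc1 hairpins red, Smarca4 hairpins blue). *Lef1* fell in all 5 series to between 3.57 and 8.17 rpm on day 7, and the single high point of *Wnt3* is Nons on day 7 at 7.14 rpm.

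Compared per kilobase of merged exon, the only scale on which levels are set against each other between genes here, *Ctnnb1* was the highest member on day 4, with 240 to 277 rpm per kb over 5 libraries. It was followed by *Lef1*, with 28.2 to 39.6 rpm per kb, and then by *Tcf7* (15.0 to 19.7) and *Tcf7l1* (12.8 to 18.2), whose ranges overlapped. *Axin2* (3.02 to 5.57), *Tcf7l2* (1.25 to 1.47) and *Wnt3* (0.504 to 0.698) came next, each range clear of its neighbours. By day 7 *Lef1* had dropped past *Tcf7* and *Tcf7l1* to 1.02 to 2.33 rpm per kb, where its range overlapped those of *Axin2* (0.976 to 2.71), *Dkk1* (1.32 to 2.22), *Tcf7l2* (0.901 to 1.25) and *Wnt3* (0.372 to 2.32). *Sp5* (0.113 to 0.523 rpm per kb) stood below *Dkk1* on day 7 without overlap, and *Lgr5* did not exceed 0.0679 rpm per kb.

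Days were compared with limma across all 20 libraries on 13296 genes with a mean of at least 0 log2 rpm, with *p*-values adjusted by Benjamini-Hochberg and a threshold of 0.05. Between day 7 and day 4, 5 of the 7 tested members passed, 2 higher and 3 lower, where 64.5% of all tested genes did. Between day 5 and day 4, 3 of 7 passed (38.7% of all genes), between day 6 and day 5, 1 of 7 (32.3%), and between day 7 and day 6, 1 of 7 (27.5%). *Sp5*, *Dkk1* and *Lgr5* fell under the filter and were tested on all 25965 entries, where 2 of the 3 passed between day 7 and day 4 (41.6% of all entries), 0 of 3 between day 5 and day 4 (22.8%), 1 of 3 between day 6 and day 5 (17.3%) and 2 of 3 between day 7 and day 6 (12.9%). Most of the transcriptome moved over these days, so these shares do not set the members apart from other genes.

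*Wnt3* (chr11:103774150-103817957, plus strand, mm10) encodes a ligand needed for primitive streak formation in the embryo. On day 4 it measured 2.15 rpm in Nons, 1.55 in Smarcc1.6, 1.59 in Smarcc1.7, 1.96 in Smarca4.4 and 1.98 in Smarca4.6. The same libraries held 1.22, 1.15, 1.23, 1.76 and 1.40 rpm on day 5. On these days all libraries lay within a narrow range of 12 to 59 reads. On day 6 *Wnt3* measured 2.23 rpm in Nons, 2.09 in Smarcc1.6, 2.48 in Smarcc1.7, 1.15 in Smarca4.4 and 1.40 in Smarca4.6. On day 7 the values were 7.14, 3.25, 2.37, 1.14 and 1.78 rpm, in the same order. Nons on day 7, with 134 reads, stood well above every other library, and both Smarca4 hairpins lay below the Nons and Smarcc1 libraries on days 6 and 7. *Wnt3* was higher on day 7 than on day 4 by 0.70 ± 0.21 on the log2 scale (fitted difference ± SE, adjusted *p* = 0.0102), but without the Nons library of day 7 the difference was 0.18 (adjusted *p* = 0.507). The step from day 6 to day 7 behaved alike, with 0.71 ± 0.21 (adjusted *p* = 0.0256) in all libraries and 0.23 (adjusted *p* = 0.478) without that library. The summed level of the primitive streak markers *T*, *Mixl1*, *Eomes*, *Mesp1* and *Gsc* was 4.80 rpm in Nons on day 7 and 7.23 to 13.9 rpm in the knockdown libraries, and *Mesp1* was at 0 reads in that Nons library and in both Smarca4 libraries of the day.

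*Lgr5* (chr10:115450311-115587780, minus strand), a receptor for R-spondins that marks adult stem cells in several epithelia, was near the limit of detection. No library held more than 7 reads, and 3 or fewer were found in 4 of 4 Nons, 6 of 8 Smarcc1 and 7 of 8 Smarca4 libraries. Summed over the 5 libraries of a day there were 15 reads on day 4 and 12 on day 7, and their rate ratio of 0.948 had a 95% interval of 0.405 to 2.17 (exact, counting error only). Pooled by group, there were 3 reads in the 4 Nons libraries, 25 in the 8 Smarcc1 libraries and 17 in the 8 Smarca4 libraries. The ratio to Nons was 4.18 (1.28 to 21.6) for *Smarcc1* and 3.22 (0.931 to 17.1) for *Smarca4* knockdown, and in the test across libraries neither passed (adjusted *p* = 0.138 and 0.493).

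*Dkk1* (chr19:30545863-30549665, minus strand) encodes a secreted antagonist that keeps the Lrp coreceptors from Wnt. On day 4 it held 13 reads (0.473 rpm) in Nons, 7 (0.319) in Smarcc1.6, 6 (0.272) in Smarcc1.7, 8 (0.341) in Smarca4.4 and 4 (0.220) in Smarca4.6, and on day 5 between 2 and 12 reads. On day 6 it measured 0.509 rpm in Nons, 1.74 in Smarcc1.6, 0.825 in Smarcc1.7, 3.51 in Smarca4.4 and 2.03 in Smarca4.6. All 4 knockdown libraries thus lay above Nons on day 6, the Smarca4 pair furthest. On day 7 the values were 3.20, 4.30, 3.93, 5.35 and 5.39 rpm in the same order, with 60 to 117 reads, and no library of day 7 overlapped with day 4 or day 5. *Dkk1* rose by 3.62 ± 0.41 (log2) from day 4 to day 7 (adjusted *p* = 1.16e-06), through 2.17 ± 0.41 from day 5 to day 6 (adjusted *p* = 0.00126) and 1.81 ± 0.41 from day 6 to day 7 (adjusted *p* = 0.00794). The last step was 1.39 without the Nons library of day 6 (adjusted *p* = 0.0587) or of day 7 (adjusted *p* = 0.0619), and it also missed the threshold without either Smarca4 hairpin (adjusted *p* = 0.0586 and 0.119). Pooled reads were 13.3 times as dense on day 7 as on day 4 (95% interval 9.50 to 19.0, counting error only).

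*Axin2* (chr11:108920349-108950783, plus strand) encodes a limiting scaffold of the destruction complex and is itself a general readout of Wnt signalling. On day 4 it measured 12.9 rpm in Nons, 23.7 in Smarcc1.6, 23.2 in Smarcc1.7, 17.3 in Smarca4.4 and 14.7 in Smarca4.6. On day 5 the same libraries held 4.41, 1.99, 5.46, 5.56 and 3.78 rpm. Every library of day 5 lay below every library of day 4, and Smarcc1.6 was the lowest of them. On day 6 *Axin2* measured 2.42, 2.89, 6.60, 4.09 and 3.24 rpm in the same order, and on day 7 it measured 4.16, 7.37, 11.5, 4.67 and 6.87 rpm. *Axin2* fell by 2.06 ± 0.32 (log2) from day 4 to day 5 (adjusted *p* = 0.000365). The later steps, -0.26 ± 0.32 and 0.83 ± 0.32, did not pass (adjusted *p* = 0.563 and 0.0652), although every series was higher on day 7 than on day 6. From day 4 to day 7 the net fall was 1.49 ± 0.32 (adjusted *p* = 0.00110), with no overlap between the days.

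*Ctnnb1* (chr9:120929216-120960507, plus strand) encodes β-catenin, which is controlled mainly at the level of protein stability. It was the most abundant member, with 869 to 1005 rpm on day 4, 458 to 705 on day 5, 417 to 713 on day 6 and 630 to 771 on day 7. *Ctnnb1* fell by 0.60 ± 0.17 (log2) from day 4 to day 5 (adjusted *p* = 0.0150) and was lower by 0.42 ± 0.17 on day 7 than on day 4 (adjusted *p* = 0.0465), and the ranges of days 4 and 7 did not overlap. The net fall lay near the threshold, and it missed it under 6 alternative settings and kept it under 10, among those that ended it the fits without Smarca4.4 (adjusted *p* = 0.143) and without Smarca4.6 (adjusted *p* = 0.115). The fall to day 5 also missed it without either of these hairpins (adjusted *p* = 0.0705 and 0.0743).

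*Lef1* (chr3:131110471-131224356, plus strand) showed the largest fall of the 10 members. LEF1 lacks the strong repressive activity of TCF7L1, and its gene is itself a Wnt target. On day 4 it measured 139 rpm in Nons, 98.8 in Smarcc1.6, 106 in Smarcc1.7, 114 in Smarca4.4 and 101 in Smarca4.6. On day 5 the values in the same order were 27.7, 14.8, 32.9, 34.3 and 45.0 rpm. All libraries had fallen, Smarcc1.6 the furthest. On day 6 *Lef1* measured 3.75, 4.41, 11.6, 7.77 and 5.27 rpm, and on day 7 it measured 3.57, 5.67, 8.17, 4.30 and 5.39 rpm. The libraries of days 6 and 7 overlapped, and both lay below all libraries of days 4 and 5. *Lef1* fell by 2.00 ± 0.29 (log2) from day 4 to day 5 (adjusted *p* = 0.000259) and by a further 2.37 ± 0.29 to day 6 (adjusted *p* = 9.05e-05), and then differed by -0.18 ± 0.29 (adjusted *p* = 0.641). From day 4 to day 7 it fell by 4.56 ± 0.29 (log2, adjusted *p* = 4.25e-08), which is 23.5-fold.

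*Tcf7* (chr11:52252371-52283014, minus strand), which encodes the mostly activating factor TCF1, measured 39.3 to 51.8 rpm on day 4 and 69.9 to 91.7 rpm on day 7. These ranges did not overlap, and *Tcf7* rose by 0.82 ± 0.31 (log2, adjusted *p* = 0.0351), a call lost without Smarca4.4 (adjusted *p* = 0.103) or Smarca4.6 (adjusted *p* = 0.178). No single step between neighbouring days passed, and on days 5 and 6 its values were widely spread, from 20.6 (Smarcc1.6) to 83.0 rpm (Smarca4.6) and from 34.3 (Smarcc1.6) to 96.8 rpm (Smarcc1.7). *Tcf7l1* (chr6:72626378-72789254, minus strand) encodes TCF3, the main TCF repressor of mESCs. It measured 39.5 to 56.1 rpm on day 4 and 47.6 to 53.5 rpm on day 7, a difference of 0.00 ± 0.35 on the log2 scale (adjusted *p* = 0.991). Between these days it split within hairpin pairs: on day 6 it measured 26.5 rpm in Nons, 24.3 in Smarcc1.6 and 25.2 in Smarca4.6 but 57.7 in Smarcc1.7 and 60.7 in Smarca4.4. *Tcf7l2* (chr19:55741810-55933654, plus strand) encodes TCF4, which is prominent in the intestine. It stayed between 1.89 and 9.89 rpm throughout and differed by -0.34 ± 0.34 between day 7 and day 4 (adjusted *p* = 0.387).

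The split between hairpins touched nearly all members at once. In Smarcc1.6 on day 5, *Axin2* (1.99 against 5.46 rpm in Smarcc1.7), *Ctnnb1* (458 against 705), *Lef1* (14.8 against 32.9), *Tcf7* (20.6 against 54.3), *Tcf7l1* (19.0 against 61.9) and *Tcf7l2* (1.89 against 6.21) were all lower than in the other hairpin. This library was not shallow, with 21658387 reads, but the median log2 rpm of its tested genes was the lowest of all libraries (4.25, against 4.36 to 4.73 in the other 19). The part of this library's composition in the results was not tested.

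Because the 4 TCF/LEF genes were measured in the same library, their share of the family's summed rpm per kb is free of scaling between libraries. On day 4 *Lef1* made up 48.5% of it (median of 5 libraries, range 44.9% to 51.8%), *Tcf7* 25.8% (23.9% to 26.9%), *Tcf7l1* 24.4% (20.5% to 29.0%) and *Tcf7l2* 2.17% (1.90% to 2.20%). On day 5 the share of *Lef1* was 18.7% (18.2% to 22.6%), on day 6 it was 4.83% (3.64% to 5.51%) and on day 7 it was 2.89% (2.16% to 4.36%). Its ranges did not overlap between days 4, 5 and 6. The share of *Tcf7* stood at 43.1% (40.1% to 45.6%) on day 5, 61.4% (55.9% to 67.1%) on day 6 and 62.3% (57.5% to 65.5%) on day 7. The share of the repressor *Tcf7l1* was 33.2% on day 5, 31.1% on day 6 and 32.9% (28.8% to 37.4%) on day 7, where its range just overlapped that of day 4. The family thus passed from *Lef1* as its largest share to *Tcf7* in all 5 series. The library Smarcc1.6 of day 5, in which the summed level was 18.7 rpm per kb against 41.8 to 69.9 in the others of that day, had shares of 22.6% for *Lef1*, 42.1% for *Tcf7* and 33.0% for *Tcf7l1*.

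**Figure D2:**
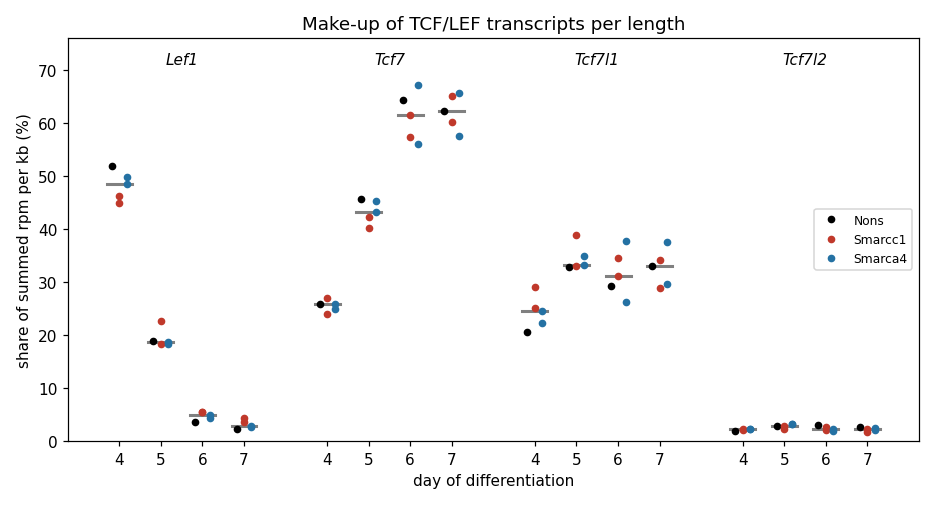
Share of each TCF/LEF gene in the summed rpm per kb of the 4 genes (y axis, percent) on days 4 to 7 (x axis, one block per gene), with a point for each of the 5 libraries of a day (black Nons, red *Smarcc1*, blue *Smarca4* knockdown) and a grey bar at their median. *Lef1* went from a median of 48.5% on day 4 to 2.89% on day 7 and *Tcf7* from 25.8% to 62.3%, with every group on the same course.

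*Sp5* (chr2:70474923-70477729, plus strand) encodes a zinc finger factor that is among the most direct targets of β-catenin. It held 0 or 1 read in every library of day 4 and 0 to 2 reads on day 5. On day 6 it held 0 reads in Nons, 5 in Smarcc1.6, 7 in Smarcc1.7, 3 in Smarca4.4 and 0 in Smarca4.6. On day 7 it held 14 reads (0.746 rpm), 24 (1.10), 16 (0.998), 8 (0.366) and 4 (0.237) in the same order. All day 7 libraries lay above all libraries of day 4, the Smarcc1 pair highest and the Smarca4 pair lowest. *Sp5* rose from day 4 to day 7 (adjusted *p* = 1.01e-06) and from day 6 to day 7 (adjusted *p* = 0.00236). Its fitted fold depends on the value given to libraries without reads, and the pooled reads, 66 on day 7 and 2 on day 4, gave a ratio of 39.1 with a 95% interval of 10.4 to 330 (counting error only).

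**Figure D3:**
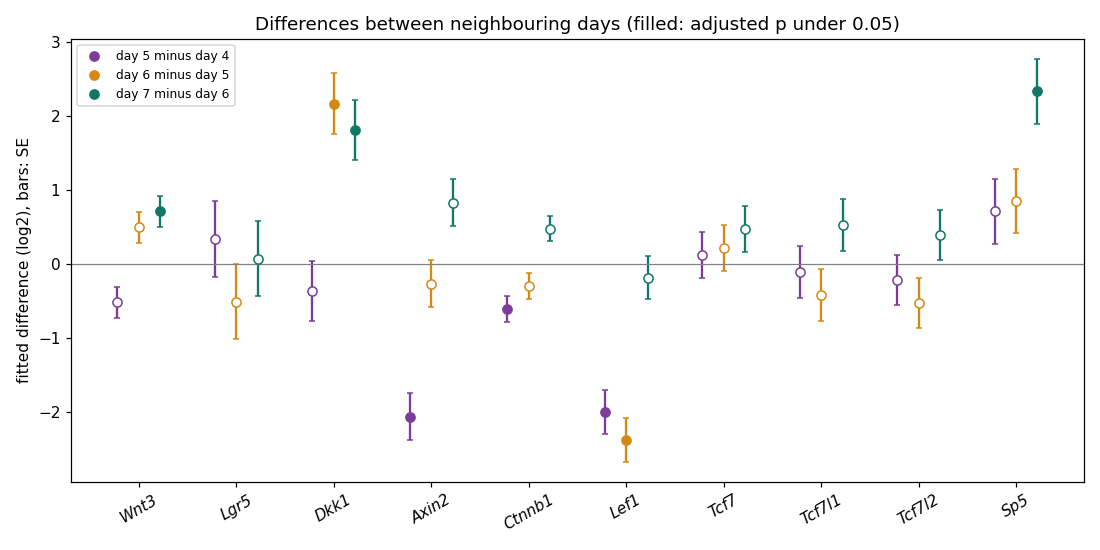
Fitted log2 differences between neighbouring days (y axis, points with bars of 1 SE) for the 10 members (x axis), averaged over the 3 groups; *Lgr5*, *Dkk1* and *Sp5* are from the fit without a filter. Filled points passed an adjusted *p* of 0.05: *Lef1*, *Axin2* and *Ctnnb1* from day 4 to day 5, *Lef1* and *Dkk1* from day 5 to day 6, and *Wnt3*, *Dkk1* and *Sp5* from day 6 to day 7.

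For *Sp5* and *Dkk1*, which rose, and *Axin2*, which fell, sequences before the RefSeq start are shown with matches to the TCF/LEF core motifs. A link between matches and direction was not tested. The 250 bases before each RefSeq start (GRCm38.p6, the assembly of mm10) were searched on both strands for the TCF/LEF motif CTTTGAA, for its form CTTTGAT, for its form CTTTGTT, and for its form CTTTGTA. All 4 begin with the same bases. Of 32851 such windows of all genes, 14.8% held at least 1 match and 1.43% held 2 or more. Starts were found for 9 members, in 15 windows, of which 4 windows of 4 members held a match (*Sp5*, *Dkk1*, and 1 alternative start each of *Lef1* and *Tcf7l2*). *Sp5* and *Dkk1* held 2 each. For *Dkk1* only the stretch with both matches is shown, since the RefSeq start lies inside the gene as the expression table bounds it. That stretch also lies inside the gene so bounded, and is upstream of the RefSeq start only. Capitals mark the matches, *Axin2* has none in its window, and each sequence runs 5′ to 3′ on the strand of the gene: *Sp5* chr2:70474673-70474922 (plus), *Dkk1* chr19:30549588-30549613 (minus) and *Axin2* chr11:108920099-108920348 (plus).
Sp5: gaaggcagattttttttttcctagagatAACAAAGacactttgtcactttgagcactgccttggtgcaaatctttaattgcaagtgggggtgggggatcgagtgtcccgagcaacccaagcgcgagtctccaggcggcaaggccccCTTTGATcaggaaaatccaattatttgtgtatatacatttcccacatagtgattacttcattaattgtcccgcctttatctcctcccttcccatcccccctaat
Dkk1: CTTTGAAatcccatcccggCTTTGTT
Axin2: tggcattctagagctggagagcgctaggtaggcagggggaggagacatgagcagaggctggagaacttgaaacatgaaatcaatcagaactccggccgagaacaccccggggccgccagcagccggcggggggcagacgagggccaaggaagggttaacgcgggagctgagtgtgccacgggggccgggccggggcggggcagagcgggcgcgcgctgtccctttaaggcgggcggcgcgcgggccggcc
In *Sp5* the matches began at bases -222 and -104 from the start, and in *Dkk1* at -117 and -98. A match is a description of these letters and not a bound site, and elements outside the window were not searched.

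The knockdowns were compared with Nons in the same fit, averaged over the 4 days, 8 libraries against 4. Under *Smarcc1* knockdown 0 of 7 tested members passed (1 at an unadjusted *p* under 0.05), where 10.6% of all tested genes passed. Under *Smarca4* knockdown 1 of 7 passed, where 6.71% of all genes did. Of *Sp5*, *Dkk1* and *Lgr5*, 0 of 3 passed in either knockdown, where 6.92% (*Smarcc1*) and 3.42% (*Smarca4*) of all entries did. At an unadjusted *p* under 0.05, *Sp5* and *Lgr5* were past in the *Smarcc1* and *Dkk1* in the *Smarca4* comparison. The median fitted difference of the 7 members was 0.08 (*Smarcc1*) and 0.15 (*Smarca4*) on the log2 scale, beside 0.06 for all tested genes in both. Both comparisons share the 4 Nons libraries.

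*Axin2* exceeded the Nons value of its day in 7 of 8 Smarcc1 and 7 of 8 Smarca4 libraries. The fitted differences were 0.61 ± 0.29 (adjusted *p* = 0.233) and 0.35 ± 0.29 (adjusted *p* = 0.559) on the log2 scale, neither past the threshold. The one Smarcc1 library below Nons was Smarcc1.6 on day 5, at 45.1% of its level. Without that library the *Smarcc1* difference was 0.79 (adjusted *p* = 0.0493), and without hairpin Smarcc1.6 altogether it was 1.02 (adjusted *p* = 0.0250), whereas without Smarcc1.7 it was 0.20 (adjusted *p* = 0.760). The size and the call of this difference thus changed with the single library Smarcc1.6 of day 5, as well as with the hairpin left out. The *Smarca4* difference remained short of the threshold under all 18 alternative settings.

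*Wnt3* lay under the Nons value of its day in 6 of 8 Smarca4 libraries, with a fitted difference of -0.72 ± 0.19 (adjusted *p* = 0.0403), and in 6 of 8 Smarcc1 libraries, with -0.45 ± 0.19 (adjusted *p* = 0.174). The *Smarca4* call rested on the Nons library of day 7. Without that library, over days 4 to 6, the difference was -0.19 (adjusted *p* = 0.775). When libraries of a hairpin were treated as a replicate block, the adjusted *p* was 0.234. The change of *Wnt3* from day 4 to day 7 differed between *Smarca4* knockdown and Nons by -2.20 ± 0.54 (unadjusted *p* = 0.00139, adjusted *p* = 0.339), and no member passed this test of the difference in either knockdown, where 0.459% (*Smarcc1*) and 0.0827% (*Smarca4*) of all tested genes did.

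*Dkk1* exceeded the Nons value of its day in 6 of 8 Smarca4 libraries, with a fitted difference of 0.89 ± 0.38 (adjusted *p* = 0.278), and in 5 of 8 Smarcc1 libraries, with 0.20 ± 0.38 (adjusted *p* = 0.992). Its pooled reads were 2.19 times as dense under *Smarca4* knockdown as in Nons (95% interval 1.72 to 2.82, counting error only), which does not cover the spread between libraries. *Sp5* differed by 0.89 ± 0.40 (adjusted *p* = 0.252) under *Smarcc1* and by 0.25 ± 0.40 (adjusted *p* = 0.715) under *Smarca4* knockdown.

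*Lef1* differed from Nons by 0.27 ± 0.27 (*Smarcc1*, adjusted *p* = 0.595) and 0.33 ± 0.27 (*Smarca4*, adjusted *p* = 0.546). It was below Nons in all 4 knockdown libraries of day 4 and above Nons in all 4 of day 6 and all 4 of day 7, which the average over days does not show. Its change from day 4 to day 7 differed from that in Nons by 1.37 ± 0.76 (*Smarcc1*) and 0.81 ± 0.76 (*Smarca4*). Both were short of the threshold, and each day has 1 Nons library. *Ctnnb1* differed by 0.13 ± 0.16 and 0.03 ± 0.16, the narrowest errors among the members. *Tcf7* (-0.14 ± 0.29 and 0.15 ± 0.29), *Tcf7l1* (0.08 ± 0.32 and 0.28 ± 0.32) and *Tcf7l2* (-0.28 ± 0.31 and 0.09 ± 0.31) had adjusted *p*-values of 0.643 to 0.911. Several of these directions turned when a hairpin was left out. Without Smarcc1.6 the *Smarcc1* difference of *Tcf7* became 0.29 and of *Dkk1* -0.22. Leaving out only the Smarcc1.6 library of day 5 already turned both, to 0.031 and -0.045. Without Smarcc1.7, a fit that keeps that library, the difference of *Lef1* became -0.12 and of *Tcf7l1* -0.27. Between the 2 knockdowns directly, 0 of 7 members differed (adjusted *p* from 0.448 to 0.939 by limma, 0 at an unadjusted *p* under 0.05), where 4.09% of all tested genes did. *Dkk1* gave -0.69 ± 0.31 in this comparison (unadjusted *p* = 0.0370, adjusted *p* = 0.350).

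**Figure D4:**
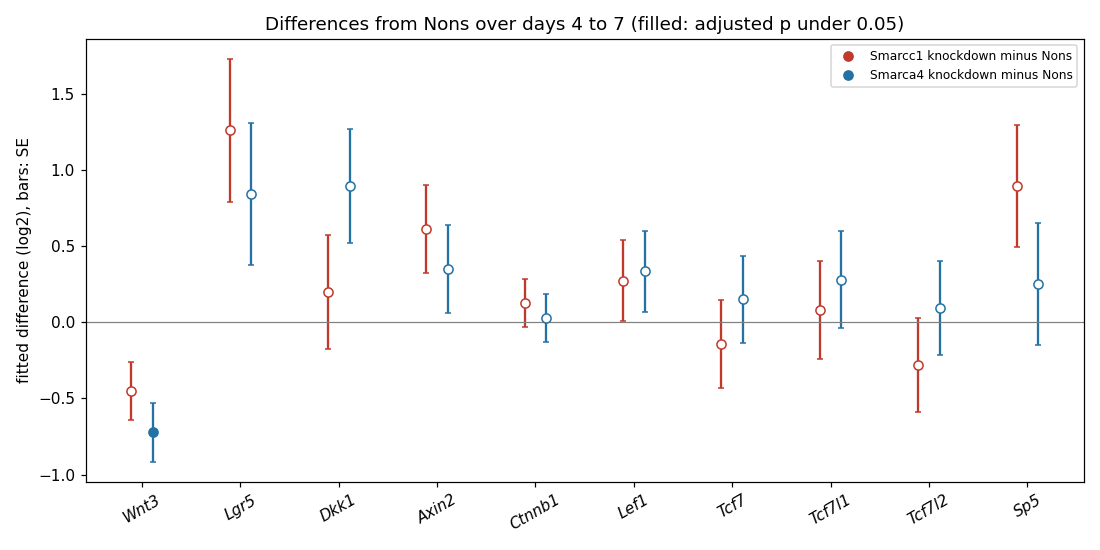
Fitted log2 differences from Nons averaged over days 4 to 7 (y axis, points with bars of 1 SE) for the 10 members (x axis), red for *Smarcc1* and blue for *Smarca4* knockdown; *Lgr5*, *Dkk1* and *Sp5* are from the fit without a filter. The only filled point, past an adjusted *p* of 0.05, is *Wnt3* under *Smarca4* knockdown at -0.72.

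The rest of the pathway, with target genes and genes repressed by *Tcf7l1*, was read from 113 listed genes, all in the table, of which 81 were tested. Under *Smarcc1* knockdown 14 were higher and 1 lower (18.5% of those tested, beside 10.6% of all tested genes, and 11 genes with the replicate block), under *Smarca4* knockdown 9 were higher and 4 lower (16.0%, beside 6.71%, and 6 genes with the block), and between day 7 and day 4, 26 were higher and 21 lower (58.0%, beside 64.5%). The lists were drawn up with earlier results of these data known, and the members are among them. The 5 genes listed as repressed by *Tcf7l1* in mESCs gave 3 of the higher genes in each knockdown. The shares above are therefore not those of signalling components alone, and shares without these 5 genes were not computed.

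Both genes of Wnt secretion passed the threshold in each knockdown, in opposite directions. *Wls*, which carries lipid-modified Wnt proteins to the cell surface, measured 5.17, 19.9, 125 and 174 rpm in Nons on days 4 to 7, and 58.6 to 76.3 rpm in the knockdown libraries of day 7. It lay below Nons in every knockdown library of its day, and was lower by 1.45 ± 0.18 (log2, *Smarcc1*, adjusted *p* = 0.000240) and 1.23 ± 0.18 (*Smarca4*, adjusted *p* = 0.00136). *Porcn*, the acyltransferase that attaches the lipid, was higher by 1.66 ± 0.21 (adjusted *p* = 0.000317) and 1.12 ± 0.21 (adjusted *p* = 0.00722, but 0.0796 with the block), with 1.49 rpm in Nons and 2.84 to 14.4 rpm in the knockdown libraries on day 7. Over the days *Wls* rose by 4.76 ± 0.19 and *Porcn* fell by 2.47 ± 0.23, so for these 2 genes each knockdown lay on the side of the earlier days. Other called genes lay on either side. *Wnt8a*, *Notum*, *Cdx4*, *Klf2*, *Esrrb* and *Nanog* fell over the days and were higher in both knockdowns, *Notum* under *Smarca4* knockdown not with the block. *Fzd10* also fell and was higher under *Smarcc1* knockdown. *Wnt3* and *Cd44* rose and were lower under *Smarca4* knockdown, though not with the block. On the other side, *Pygo1*, a β-catenin cofactor, rose by 2.38 ± 0.23 and was higher in both knockdowns, though not with the block. *Dkk3*, *Tle2* and *Nkd1* rose and were higher under *Smarcc1* knockdown, also not with the block. The timing of differentiation was not tested here.

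Among 19 Wnt ligands only 7 passed the filter. *Wnt8a*, a ligand of the early embryo, was higher by 1.601 ± 0.16 (*Smarcc1*, adjusted *p* = 6.26e-05) and 0.96 ± 0.16 (*Smarca4*, adjusted *p* = 0.00377). It fell from 17.8 to 0.533 rpm in Nons between days 4 and 7 and was at 1.01 to 2.38 rpm in the knockdown libraries of day 7. *Wnt4* and *Wnt9a* rose by 5.53 ± 0.33 and 5.24 ± 0.34 from day 4 to day 7, to 18.1 to 40.5 rpm and 37.4 to 48.3 rpm, and were not called in either knockdown. Between day 7 and day 4, 5 of the 7 ligands were higher and 1 lower, where 64.5% of all tested genes passed.

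Of 18 receptors and coreceptors, 16 were tested. *Fzd10* (1.40 ± 0.18, adjusted *p* = 0.000316) and *Fzd9* (0.84 ± 0.15, adjusted *p* = 0.00343) were higher under *Smarcc1* knockdown, and *Fzd9* (0.74 ± 0.15, adjusted *p* = 0.0124) under *Smarca4* knockdown, where the block ended the call (adjusted *p* = 0.108). Over the days 6 were higher, among them *Fzd2* (3.24 ± 0.22) and *Lrp5* (1.52 ± 0.37), and 3 lower, among them *Ror1* (-1.59 ± 0.33). Of the 6 R-spondins and receptor ligases, 2 were tested and 0 passed by limma in either knockdown (1 at an unadjusted *p* under 0.05 in each) or between the days (0 at that level, although 1 passed with the block). Extracellular antagonists (7 of 16 tested) gave 3 higher genes under *Smarcc1* knockdown, namely the Wnt deacylase *Notum* (1.40 ± 0.19), the membrane-bound inhibitor *Apcdd1* (0.86 ± 0.18) and *Dkk3* (0.75 ± 0.18, adjusted *p* = 0.0897 with the block). Under *Smarca4* knockdown *Notum* was higher (0.81 ± 0.19) and the Frizzled-related inhibitor *Sfrp1* lower (-0.67 ± 0.15), and neither passed with the block (adjusted *p* = 0.161 and 0.0955). From day 4 to day 7 *Notum* fell by 3.89 ± 0.21, while *Dkk3* (3.49 ± 0.19) and the Dkk receptor *Kremen1* (2.00 ± 0.29) rose.

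The 17 Dishevelled and destruction complex genes were all tested and 0 passed in either knockdown by limma, with 2 (*Smarcc1*) and 3 (*Smarca4*) at an unadjusted *p* under 0.05 (median log2 difference 0.21 in both, 0.06 over all genes). Between the days 4 were higher and 1 lower, *Csnk1e* (2.28 ± 0.20), a casein kinase 1, rising most and *Axin2* being the one that fell. Among 19 nuclear factors the β-catenin cofactor *Pygo1* was higher in both knockdowns (1.00 ± 0.21 and 1.09 ± 0.21) and the Groucho corepressor *Tle2* under *Smarcc1* knockdown (1.25 ± 0.29), of which the block kept none (adjusted *p* from 0.0613 to 0.0879). Over the days *Tle4*, another Groucho corepressor, fell by 2.88 ± 0.19, from 282 to 315 rpm on day 4 to 34.8 to 53.1 rpm on day 7, beside *Lef1*.

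Of 20 target genes, 12 were tested. Under *Smarcc1* knockdown 4 were higher and 0 lower (3 with the block, and 10.6% of all tested genes passed), *Cdx4*, a caudal homeobox gene, leading with 1.98 ± 0.22 (adjusted *p* = 9.95e-05). Under *Smarca4* knockdown 2 were higher, *Cdx4* (1.27 ± 0.22, adjusted *p* = 0.00402) and *Notum*, and 1 lower, *Cd44*, a hyaluronan receptor (-1.05 ± 0.28, adjusted *p* = 0.0411, 0.195 with the block). The median of the target list was 0.41 (*Smarcc1*) and 0.34 (*Smarca4*), beside 0.06 over all tested genes. From day 4 to day 7, 4 targets were higher, *Cd44* (4.14 ± 0.30) most, and 6 lower, with *Lef1* and *Notum* furthest down. The targets thus did not move as a unit over the days.

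Of 5 genes listed as repressed by *Tcf7l1* in mESCs, 3 were higher and 0 lower in each knockdown, also with the block, where 10.6% (*Smarcc1*) and 6.71% (*Smarca4*) of all tested genes passed. *Klf2*, a naive pluripotency factor, was higher by 2.12 ± 0.17 (*Smarcc1*, adjusted *p* = 8.74e-06) and 1.65 ± 0.17 (*Smarca4*, adjusted *p* = 0.000263). The orphan receptor gene *Esrrb* was higher by 1.84 ± 0.19 and 1.24 ± 0.19, and the homeobox gene *Nanog* by 1.09 ± 0.15 and 0.84 ± 0.15. At an unadjusted *p* under 0.05 by limma, 4 (*Smarcc1*) and 5 (*Smarca4*) of the 5 were past, counted in either direction. Those under *Smarca4* knockdown include *Nr0b1*, which was lower there. *Nr0b1*, not called, lay below Nons in every Smarca4 library of its day, with 63.6 to 69.0 rpm against 80.0 on day 4. In Smarcc1 libraries it lay above Nons on day 4 (83.4 to 89.1 rpm) and below on day 5 (6.55 to 8.17 against 10.1). On day 6 it was again above Nons (1.52 to 1.96 against 0.76), and on day 7 it ranged from 0.686 to 1.56 against 0.746. *Nanog* measured 64.5 rpm in Nons on day 7 and 95.0 to 175 rpm in the knockdown libraries. From day 4 to day 7, 0 were higher and 4 lower, and the log2 differences were -6.85 ± 0.22 for *Nr0b1*, -3.54 ± 0.20 for *Esrrb* and -1.53 ± 0.18 for *Klf2*. *Tcf7l1* itself differed by 0.08 and 0.28 in the knockdowns, short of the threshold. *Esrrb* and *Nanog* are among the 6 naive pluripotency markers given above.

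**Figure D5:**
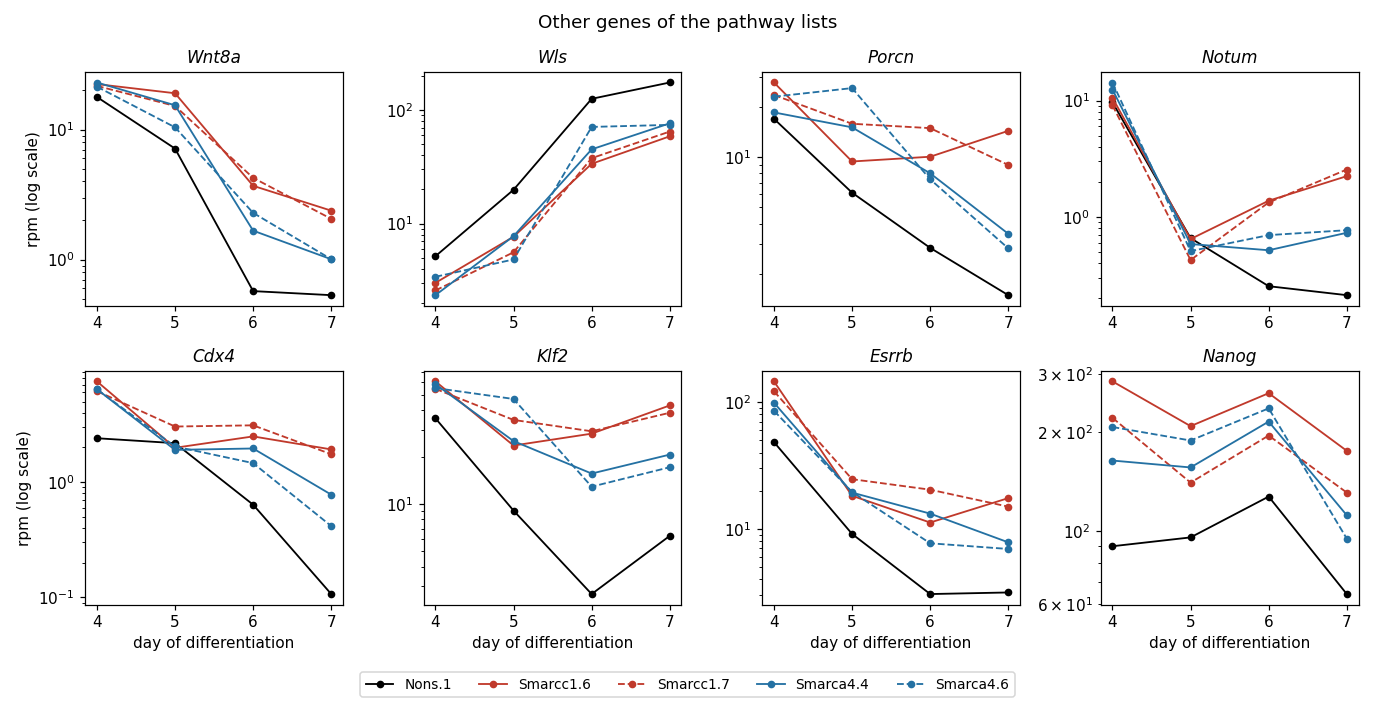
Expression in rpm (y axis, log scale, a separate range in each panel) of 8 genes of the pathway lists against day (x axis), a line per culture series (Nons.1 black, Smarcc1 hairpins red, Smarca4 hairpins blue). On day 7 *Wls* was at 174 rpm in Nons and at 58.6 to 76.3 rpm in the knockdown libraries, and *Nanog* at 64.5 rpm against 95.0 to 175 rpm.

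The genes with the most similar pattern to a tested member were found by Pearson correlation of log2 rpm over the 20 libraries among 13295 other genes, as a description, since all points share day and library. *Lef1* was closest to *Tle4* (*r* = 0.98), *Msh6* and *Noc4l*. *Ctnnb1* was closest to *Edc4* (0.98), *Fnbp1* and *Qrich1*. *Tcf7* was closest to *Whrn* (0.94), *Esrp1* and *Trappc9*, *Tcf7l1* to *Med25* (0.97), *Pigt* and *Ap2a1*, and *Tcf7l2* to *Plk1* (0.92), *Rnps1* and *Tcf7l1* (0.90). *Wnt3* had no close match, its nearest being *Lrpap1* (0.84), *Fstl1* and *Serpine2*. After the mean of each day was removed, the 6 tested members other than *Wnt3* were positively correlated in 15 of 15 pairs (*r* from 0.45 to 0.92), *Tcf7l1* with *Tcf7l2* most closely, whereas *Wnt3* gave -0.07 to 0.18 with them. These within-day values include the low values of Smarcc1.6 on day 5. Genes outside the pathway correlated as closely within days, such as *Med25* with *Tcf7l1* (0.97) and *Edc4* with *Ctnnb1* (0.95). The share of positive pairs among all genes was not computed, so the count does not set the members apart.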

How the data were processed

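RNA-seq libraries were sequenced as 75 bp single-end reads, trimmed and aligned by the authors to mm10 with tophat or HISAT2, and the deposited table holds log2 rpm per gene (reads scaled to library size), computed by the authors in SeqMonk. Annotation release, strand setting and treatment of duplicates are not given in the sources used here. Of 24 samples, 20 were in the table, and the 4 samples of Nons replicate 2 are not analysed here. A characteristic of the Smarca4 libraries names a *Smarcc* knockdown, and titles were followed. Genes without reads hold the value of 0.9 read, and values under 1000 reads came out as whole reads within 0.02 in 100% of cases, which gave the read counts and totals. The precision of low values is set by these counts, and intervals cover counting error only.

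Genes with a mean of at least 0 log2 rpm were fitted in limma 3.58.1 (R 4.3.3) with a trend, 12 group-by-day means and contrasts averaged over days or groups, with Benjamini-Hochberg adjustment. *Sp5*, *Dkk1* and *Lgr5* lay below this filter and were taken from the fit of all 25965 genes. Levels between genes were set per kb of merged GENCODE M21 exons (GRCm38). Named were all members, the genes targeted by the hairpins, up to 3 called genes per pathway list and contrast by size of change, and the 3 nearest genes to each tested member, of which those of *Axin2* are not reported here. The members and lists were chosen with earlier results of these data known. Alternatives changed the filter, scale, normalization, test, libraries and model, including the culture series as a replicate block. Deviations of a hairpin correlated between days at 0.02 to 0.82 (*Smarcc1*) and -0.21 to 0.37 (*Smarca4*), and the consensus correlation was 0.22. Leaving out single Nons libraries, Smarcc1.6 or Smarca4.4 on day 5, and refitting the low members under each alternative, were chosen after seeing the data. Tested on simulated data for *Smarcc1* against Nons over 13296 genes, the fit called 55% of 200 genes changed by 1 log2 unit and 3 unchanged genes. The simulated noise was independent between libraries, without the correlation between days of a hairpin given above. These counts therefore do not give the error rate for such repeated libraries. Other tools were Python 3.11.15, numpy 2.4.6, pandas 2.3.3, scipy 1.17.1 and matplotlib 3.10.9.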

Additional observations from a re-analysis of the deposited data

How the results depend on the processing

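The falls of *Lef1* and *Axin2* and the rises of *Dkk1* and *Sp5* from day 4 to day 7 kept their direction and their call under every alternative run, with *Lef1* between -4.73 and -4.19 and *Axin2* between -1.76 and -1.34 on the log2 scale. *Wnt3* in *Smarca4* knockdown ranged from -1.09 to -0.19 (adjusted *p* 0.0143 to 0.775), and its call was kept under 8 alternatives and lost under 10. Causes of these shifts were not tested beyond what each alternative leaves out. Depth limited *Sp5*, *Lgr5* and *Dkk1* before day 6, where no library held over 13 reads, and the single Nons library of each day limits every comparison with Nons.

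When libraries of a series formed a replicate block, called genes numbered 605 (*Smarcc1*, 1412 without the block), 258 (*Smarca4*, 892) and 105 (between knockdowns, 544), and 175 and 20 for the differences in day change (61 and 11). Called members were 0 in *Smarca4* knockdown and 3 from day 6 to day 7, where *Axin2* (adjusted *p* = 0.0266) and *Ctnnb1* (0.0224) joined *Wnt3*, and *Wnt3* passed from day 4 to day 5 (0.0449). The block changed no other call of a member.

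With a mean of at least 10 rpm, called genes numbered 491 (*Smarcc1*), 266 (*Smarca4*), 182 (between knockdowns), 5538 (day 7 against 4), 3207 (5 against 4), 2617 (6 against 5), 2430 (7 against 6), and 11 and 0 (differences in day change), with 2 members for day 7 against 4 and 0 for day 7 against 6 and *Smarca4*. Fewer genes, and without *Wnt3*, *Axin2* and *Tcf7l2*, were then tested. *Smarca4* members called were also 0 without a filter, with additive factors and with only the groups compared. *Smarcc1* members called were 1 under quantile normalization (*Wnt3*). Members called from day 6 to day 7 were 0 after centring, quantile normalization or no filter, and 2 with additive factors or limma-voom on reads. For the differences in day change, called genes were 19 and 0 with log2(rpm + 1), 14 and 1 after quantile normalization, 1 (*Smarca4*) without a filter and 4 (*Smarca4*) with limma-voom.

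Leaving out a hairpin or a library gave 635 to 1799 called genes for *Smarcc1* (among them 668, 843 and 1288) and 0 to 1 members, 277 to 1144 for *Smarca4* (among them 320, 331, 420, 552 and 656) and 0 to 1 members, and 49 to 1067 between knockdowns (among them 88, 156 and 263) with 0 to 1 members. It gave 3179 to 5723 genes for day 5 against 4 (among them 5030), 1 to 2 members for day 6 against 5, 3 to 5 members for day 7 against 4, and 1061 to 4680 genes (among them 1917, 1968, 2221, 2224 and 4031) with 0 to 4 members (among them 3) for day 7 against 6. The differences in day change gave 0 to 79 genes for *Smarcc1* (among them 6 and 8) and 0 to 11 for *Smarca4*.

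Directions of uncalled members turned as follows. Leaving out a hairpin, the *Smarcc1* differences ranged from -0.12 to 0.67 (*Lef1*), -0.58 to 0.29 (*Tcf7*), -0.27 to 0.43 (*Tcf7l1*), -0.59 to 0.034 (*Tcf7l2*), -0.22 to 0.62 (*Dkk1*) and -0.041 to 0.30 (*Ctnnb1*). Without Smarcc1.6 on day 5, *Tcf7* became 0.031 and *Dkk1* -0.045, without Nons on day 5 *Tcf7* became 0.0023, without Nons on day 6 *Tcf7l1* became -0.058 and *Dkk1* -0.14, and after quantile normalization *Dkk1* became -0.17. The *Smarca4* differences ranged from -0.025 to 0.21 (*Tcf7l2*), -0.079 to 0.58 (*Sp5*) and -0.057 to 0.11 (*Ctnnb1*) without a hairpin. Without Nons on day 5 *Tcf7l2* became -0.13 and *Sp5* -0.070, and without Nons on day 6 *Ctnnb1* became -0.043. *Sp5* became -0.068 with log2(rpm + 1), quantile normalization gave -0.047 (*Sp5*) and -0.022 (*Tcf7l2*), and centring gave -0.047 (*Ctnnb1*). Between day 7 and day 4, *Tcf7l1* became -0.17 after centring, -0.026 after quantile normalization and -0.031 to 0.041 without a hairpin, and *Lgr5* -0.39 to 0.21.

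Centring moved the median gene by -0.18 (day 7 against 4) and -0.20 (day 7 against 6). Higher against lower calls were 2248 against 1408 from day 6 to day 7 and became 1407 against 2278 after centring and 1628 against 2192 after quantile normalization. For *Smarcc1* 1003 against 409 became 657 against 537 (quantile), and for *Smarca4* 631 against 261 became 541 against 353 (centred) and 394 against 325 (quantile).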
